A study of Mus musculus with 9 samples.

Results

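Il2, the gene of the growth factor interleukin 2, and the genes of its 3 receptor chains, Il2ra, Il2rb and Il2rg, were followed in RNA sequencing libraries of mouse splenic CD4+ T cells. The 4 genes were taken by name, as the ligand and the chains of its receptor, from 55573 gene identifiers counted in every library, and all 4 had enough counts to be tested. The naive group was untreated, and both activated groups were cultured for 3 hours on anti-CD3 and anti-CD28, antibodies that engage the T cell receptor and its costimulatory receptor CD28, with the incubator at 37 °C or at the febrile temperature of 39 °C. Each group had 3 libraries of cells from B6 mice, and the labels give no age or sex and no genetic modification. The series' design has CD4+ cells separated before activation, whereas the growth protocol puts whole spleen cells into the coated plates, and neither says whether naive cells were cultured. The libraries of a group are not described as separate mice or cultures, so every p-value measures only the spread between these libraries, which may be technical.

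Interleukin 2 is secreted by T cells soon after their antigen receptor is engaged and drives their growth and survival. The alpha chain (Il2ra, CD25) raises the affinity of the receptor but does not itself signal, whereas the beta chain (Il2rb, CD122) and the common gamma chain (Il2rg, CD132) carry the kinases JAK1 and JAK3, which phosphorylate STAT5. The beta chain also serves interleukin 15, and the gamma chain serves the receptors for interleukins 4, 7, 9, 15 and 21. In the spleen, regulatory T cells carry the alpha chain without stimulation, and natural killer cells and memory CD8 T cells carry much beta chain.

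Il2 (ENSMUSG00000027720) lies on the minus strand of chromosome 3 at 37120523 to 37125959 in GRCm38, and Il2ra (ENSMUSG00000026770) on the plus strand of chromosome 2 at 11642807 to 11693193. Il2rb (ENSMUSG00000068227) lies on the minus strand of chromosome 15 at 78479256 to 78495271, and Il2rg (ENSMUSG00000031304) on the minus strand of the X chromosome at 101264378 to 101268255. All 4 are protein-coding, and their merged exons span 1144, 5711, 4287 and 2387 bases in this order. The promoters of Il2 and Il2ra, the members with the largest change on activation, are shown so that the sequence next to their start sites stands beside the values. They are the 250 bases before the RefSeq start site in GRCm38.p6, at chr3:37125955-37126204 on the minus strand for Il2 and chr2:11642542-11642791 on the plus strand for Il2ra, printed 5′ to 3′ with motif matches in capitals.
Il2: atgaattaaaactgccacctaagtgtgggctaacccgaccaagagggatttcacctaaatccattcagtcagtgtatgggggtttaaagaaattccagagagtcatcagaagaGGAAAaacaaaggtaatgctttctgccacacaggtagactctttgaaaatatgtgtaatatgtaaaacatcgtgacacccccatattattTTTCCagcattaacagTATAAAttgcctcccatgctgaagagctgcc
Il2ra: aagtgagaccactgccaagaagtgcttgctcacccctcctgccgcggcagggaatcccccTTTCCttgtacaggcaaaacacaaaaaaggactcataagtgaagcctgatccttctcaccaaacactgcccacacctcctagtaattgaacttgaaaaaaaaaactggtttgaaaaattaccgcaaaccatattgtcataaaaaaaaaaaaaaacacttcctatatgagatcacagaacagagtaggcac
Matches were sought on both strands for the core of NFAT sites (GGAAA), the AP-1 site (TGANTCA), the STAT-type site TTCNNNGAA and the TATA box (TATAAA). The Il2 stretch held 2 NFAT cores, which begin 137 bases before the start site on the gene's strand and 47 bases before it on the opposite strand, and a TATA box that begins 31 bases before it, none of which overlap. The Il2ra stretch held 1 NFAT core on the opposite strand, 190 bases before the start site, and no match to the other motifs. Of 32851 RefSeq promoters of this length, 55.6% held the NFAT core, 6.75% the AP-1 site, 7.02% the STAT-type site and 12.4% the TATA box. A match of so few letters is a description of the sequence and not a binding site. RefSeq promoters were matched for 3 of the 4 members, among them Il2rg. The Il2rg stretch also held an NFAT core, on the opposite strand, 23 bases before the start site. All 3 promoters thus held the core, as did 55.6% of the RefSeq promoters, and its part in the changes on activation was not tested.

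The libraries held 12647692 to 17605549 counts each. Defining genes of CD4 T cells were present throughout, with Cd4 at 799 ± 61.7 CPM in naive libraries and at 611 ± 15.3 and 614 ± 11.8 CPM in those activated at 37 °C and 39 °C (CPM are counts brought to a common library size, here with TMM scaling, and ± is the SD, n = 3). Replicate libraries differed by more than counting noise, with a chi-square per degree of freedom of 2.04 to 38.7, the highest between naive libraries 1 and 2. B cell markers were present in all libraries, and all 12 had counts, with a summed level of 778 to 926 CPM in naive, 272 to 284 at 37 °C and 297 to 310 at 39 °C. The 9 NK cell markers summed to 50.3 to 55.0, 28.7 to 29.4 and 25.04 to 26.9 CPM in the same order, and the defining NK gene Ncr1 was at or near 0 in every library. The 8 markers of erythroid cells and platelets summed to 135 to 225, 2.8 to 3.2 and 2.9 to 4.2 CPM in that order. All 5 of them that were tested were called lower than naive at each temperature, against 31.8% of all genes tested at 37 °C and 29.8% at 39 °C. In bulk RNA, fewer cells of a type and less RNA per cell cannot be told apart.

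Setting the 37 °C libraries against the naive ones asks which members differed after 3 hours of stimulation. Any difference in culture, handling or cell make-up goes with stimulation here, and its part was not tested. All 4 members rose. Il2 rose by the largest factor, from a few counts per library, the alpha chain gene rose several-fold, and the beta and gamma chain genes rose by less than the alpha chain gene. In this comparison 30.9% of the 13328 genes tested were called higher (adjusted p under 0.05), 31.8% lower and 62.7% in either direction, so a call by itself sets the beta and gamma chain genes little apart from other genes. With upper-quartile scaling the share of called genes that were higher went from 49.2% to 39.4%. The groups did not overlap for 3 of the 4 members, against 65.4% of all genes tested.

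**Figure D1:**
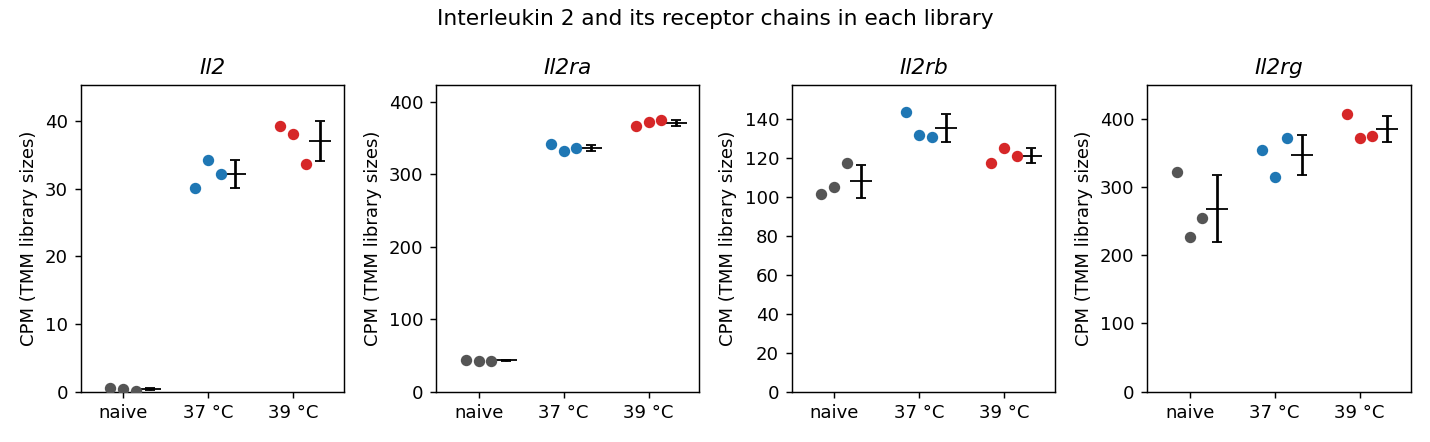
Level of each gene in CPM (linear axes from 0) in the 3 naive, 3 37 °C and 3 39 °C libraries, with points for libraries and bars for mean and SD. Naive and activated libraries are far apart for Il2 and Il2ra, while for Il2rg the naive library at 322 CPM lies within the 37 °C range.

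Il2, the ligand gene, had 7, 6 and 3 counts in the naive libraries, or 0.481, 0.421 and 0.169 CPM. In the 37 °C libraries it had 421, 496 and 414 counts, or 30.1, 34.2 and 32.1 CPM. Every activated library was thus far above every naive one, and the naive level rested on 16 counts in all. The log2 fold change was 6.51 ± 0.19 (standard error of the edgeR fit, n = 3 per group), a 91.1-fold rise with a 95% interval of 68.1 to 121.8 (adjusted p = 9.57e-11). Il2 ranked 7 of 13328 genes by fold change in this comparison.

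Il2ra, the alpha chain gene, was at 43.4, 42.9 and 43.0 CPM in the naive libraries and at 341, 333 and 336 CPM in the 37 °C libraries. The libraries of a group were close together, with an SD of 0.601% of the mean in naive cells and 1.33% at 37 °C, and the groups were widely separated. The log2 fold change was 2.97 ± 0.063, a 7.81-fold rise with a 95% interval of 7.11 to 8.59 (adjusted p = 8.17e-12). Only 1.13% of genes tested had a larger fold change. Naive libraries already held 2005 counts of Il2ra over the group. Foxp3, the lineage factor of regulatory T cells, was at 44.9 ± 4.51 CPM in naive cells and at 85.7 ± 1.84 and 90.3 ± 1.74 CPM in cells activated at 37 °C and 39 °C. The 8 regulatory T cell markers, all with counts, summed to 318 to 344 CPM in naive, 608 to 654 at 37 °C and 625 to 657 at 39 °C, a sum that includes the activation gene Tnfrsf9, which went from 20.0 ± 1.20 to 253 ± 16.2 CPM at 37 °C. Of the 8, 6 were called higher and 1 lower at each temperature. Over all genes tested, 30.9% were called higher and 31.8% lower at 37 °C, and 29.2% and 29.8% at 39 °C. Among the markers, the inhibitory receptor gene Ctla4 went from 112 ± 12.3 to 68.9 ± 1.60 CPM at 37 °C. The part of regulatory T cells in the Il2ra level was not tested.

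Il2rb, the beta chain gene, was at 102, 105 and 118 CPM in the naive libraries and at 144, 132 and 131 CPM at 37 °C. The lowest 37 °C library stood above the highest naive library. The log2 fold change was 0.33 ± 0.073, a 1.25-fold rise with a 95% interval of 1.12 to 1.40 (adjusted p = 0.00199), and 32.02% of genes tested had a larger fold change. With upper-quartile scaling, which moved the median gene down by 0.13 on the log2 scale, the estimate was 0.19 and still called. All 4 tested NK cell markers of 9 listed and both CD8 T cell markers were called lower at 37 °C (31.8% of all genes). Cells of these types are known to carry the beta chain. The CD8 markers summed to 25.8 to 36.1 CPM in naive and 13.5 to 15.1 at 37 °C. Among the NK markers, Prf1 went from 35.15 ± 1.24 to 18.45 ± 0.344 CPM and Eomes from 13.2 ± 1.51 to 10.3 ± 0.66 CPM. Ncr1, Klrb1c, Klre1, Klra4, Klra8 and Klra9 each averaged at most 0.80 CPM in naive cells, so the NK sum rests mainly on Prf1 and Eomes. Of the 8 regulatory T cell markers, 6 were called higher, against 30.9% of all genes tested. The part of these cells in the Il2rb level was not tested.

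Il2rg, the common gamma chain gene, was at 322, 227 and 255 CPM in the naive libraries and at 354, 315 and 372 CPM at 37 °C. The groups overlapped, because naive library 1 was above 37 °C library 2. The log2 fold change was 0.37 ± 0.12, a 1.30-fold rise with a 95% interval of 1.09 to 1.54 (adjusted p = 0.0140). Leaving out naive library 3 (0.34, adjusted p = 0.0577) or 37 °C library 3 (0.32, adjusted p = 0.0570) ended the call, as did upper-quartile scaling (0.24, adjusted p = 0.0873), and the alternatives gave adjusted p from 5.5e-05 to 0.0873. Of the 4 members it had the largest spread among naive libraries relative to its mean after Il2, with an SD of 18.3% of the mean. Of 12 B cell markers, from cells that also carry the gamma chain, 10 were called lower and 1 higher at 37 °C. The shares over all genes tested were 31.8% and 30.9%. The part of B cells in the Il2rg level was not tested.

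The comparison of 39 °C with naive cells asks the same of cells activated at the febrile temperature, and it shares the naive libraries with the comparison above. Il2, Il2ra and Il2rg rose, while Il2rb was not called. Calls were made for 58.9% of all genes, 29.2% higher and 29.8% lower, and with upper-quartile scaling the share of called genes that were higher went from 49.5% to 38.6%. The groups did not overlap for 3 of the 4 members, against 61.3% of all genes.

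Il2 had 631, 479 and 483 counts at 39 °C, or 39.3, 38.1 and 33.7 CPM. All 3 libraries were far above the naive ones, and the fitted rise was 104.9-fold with a 95% interval of 78.7 to 139.8 (log2 fold change 6.71 ± 0.19, adjusted p = 7.44e-11). Il2ra was at 366, 373 and 375 CPM at 39 °C. This was 8.62 times the naive level, with a 95% interval of 7.83 to 9.48 (log2 fold change 3.11 ± 0.063, adjusted p = 7.68e-12).

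Il2rb was at 118, 125 and 121 CPM at 39 °C. Its lowest 39 °C library, at 117.5 CPM, was just under the highest naive library, at 117.7 CPM. The log2 fold change was 0.17 ± 0.073, with a 95% interval of 0.0059 to 0.32, and missed the threshold (adjusted p = 0.0698). Without naive library 3, the naive library with the highest Il2rb, the estimate was 0.23 and was called (adjusted p = 0.0216), whereas with upper-quartile scaling it was 0.038, and over all alternatives the adjusted p ran from 0.0216 to 0.672. Il2rg was at 407, 373 and 375 CPM at 39 °C, with every library above the naive ones. Its rise was 1.44-fold with a 95% interval of 1.21 to 1.71 (log2 fold change 0.52 ± 0.12, adjusted p = 0.00200), a call kept under each alternative run, with estimates of 0.40 to 0.68.

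**Figure D2:**
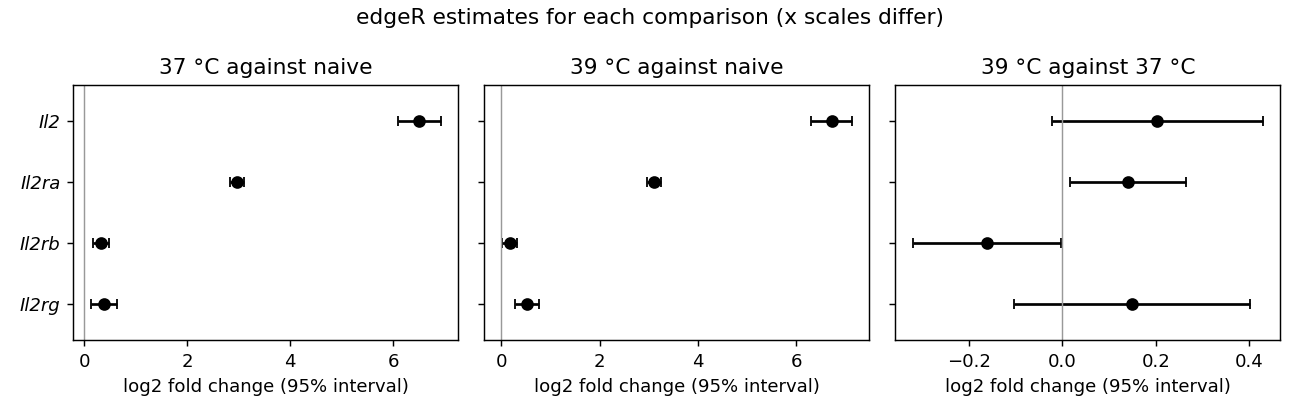
Log2 fold changes of the 4 genes from the edgeR fit with 95% intervals, 1 panel per comparison with its own x scale. Between 39 °C and 37 °C all 4 estimates lie between -0.16 and 0.20, against 6.51 for Il2 and 2.97 for Il2ra on activation at 37 °C.

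The comparison of 39 °C with 37 °C asks whether the febrile temperature changed these genes in cells activated for the same time. Il2, Il2ra and Il2rg had slightly higher means at 39 °C and Il2rb a slightly lower one, and none of the 4 was called by edgeR. At an unadjusted p under 0.05 there were 2 of 4 members, Il2ra and Il2rb, against 7.96% of all genes tested, and DESeq2 called 0. Calls were rare in this comparison, at 0.758% of genes tested, with 0.135% higher and 0.623% lower. The libraries of the temperatures did not overlap for 3 of the 4 members, against 20.9% of all genes tested. The count of 101 called genes in the whole table fell to 37 to 51 without any 1 activated library and was 291 without naive library 1 and 152 without naive library 2, but no member was called in any of these fits.

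Il2ra was at 341, 333 and 336 CPM at 37 °C and at 366, 373 and 375 CPM at 39 °C, so that the groups did not overlap. The difference was a log2 fold change of 0.14 ± 0.057, or 1.103-fold with a 95% interval of 1.01 to 1.20 (adjusted p = 0.539, from 0.119 to 1 over the alternatives). Il2 overlapped between the temperatures, since the lowest 39 °C library at 33.7 CPM was under the highest 37 °C library at 34.2 CPM. Its difference was 0.20 ± 0.10 on the log2 scale, or 1.15-fold with a 95% interval of 0.985 to 1.35 (adjusted p = 0.696).

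Il2rb was the member with a lower level at 39 °C, with 118, 125 and 121 CPM against 144, 132 and 131 CPM and no overlap. The log2 fold change was -0.16 ± 0.073, with a 95% interval of -0.32 to -0.0020 (adjusted p = 0.619). Il2rg did not overlap either, with its lowest 39 °C library at 372.8 CPM and its highest 37 °C library at 372.5 CPM. The difference was 0.15 ± 0.12 on the log2 scale, with a 95% interval of -0.10 to 0.40 (adjusted p = 0.852). The standard errors of this comparison come from the fit of all 9 libraries, naive ones included. With its 6 libraries alone they were smaller, at 0.077 for Il2, 0.044 for Il2ra, 0.052 for Il2rb and 0.063 for Il2rg. The estimates were then 0.20, 0.14, -0.16 and 0.15, and none was called (edgeR adjusted p from 0.12 to 0.26). An exact 2-sided permutation test of log2 CPM was also run for each member in each comparison, 12 in all. The exact permutation p was 0.1, the smallest value that 3 against 3 libraries allow, where groups did not overlap and 0.2 in the remaining 3 cases, with Benjamini-Hochberg values of 0.133 and 0.2.

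To set the genes beside each other, counts were divided by the length of merged exons and expressed as RPKM, the CPM per kilobase of exon. In naive cells the gamma chain gene had the highest level, at 135, 95.3 and 107 RPKM, followed by the beta chain gene at 23.7 to 27.5 RPKM, the alpha chain gene at 7.51 to 7.59 RPKM and Il2 at 0.148 to 0.421 RPKM. None of these ranges touched its neighbour. At 37 °C the order had changed, with Il2rg at 132 to 156 RPKM, Il2ra at 58.2 to 59.8 RPKM, Il2rb at 30.6 to 33.6 RPKM and Il2 at 26.3 to 29.9 RPKM. The alpha chain thus passed the beta chain on activation, while the gamma chain stayed highest.

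At 39 °C Il2rg was at 156 to 171 RPKM and Il2ra at 64.1 to 65.6 RPKM. Il2, at 29.4 to 34.4 RPKM, and Il2rb, at 27.4 to 29.2 RPKM, were neighbours that barely separated. With the longest transcript as the length, Il2rb reached 29.9 RPKM and the ranges overlapped, so the order of these neighbours at 39 °C depends on the length used. With the longest transcript Il2ra was at 9.76 RPKM in naive cells and 76.3 at 37 °C, and Il2rg at 161 and 208, which left the order of the receptor chains as it was.

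**Figure D3:**
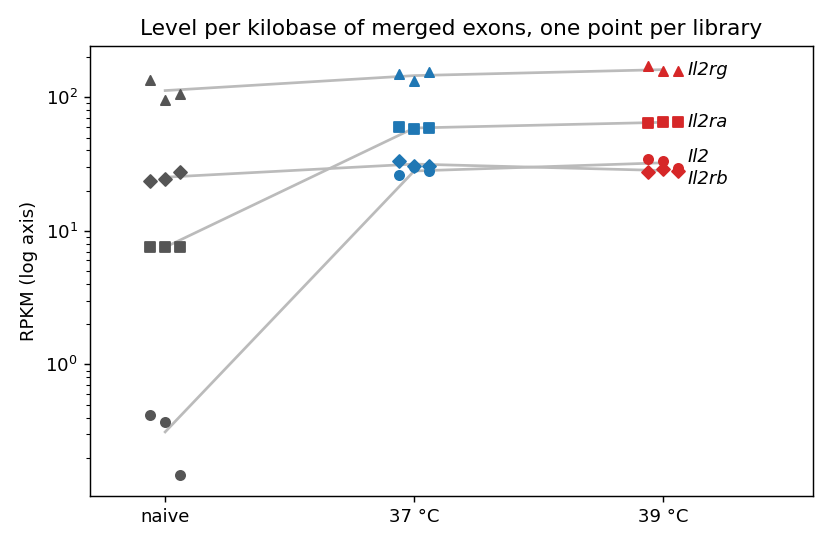
Level of each gene per kilobase of merged exons (RPKM, log axis), with 1 point per library and lines joining group means. Il2ra moves from 7.54 RPKM in naive cells, under Il2rb at 25.2, to 59.0 RPKM at 37 °C, above Il2rb at 31.6.

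Ratios between receptor chains within a library need no scaling between libraries. They were examined after the levels had been seen. The ratio of alpha to beta chain counts per exon base was 0.320, 0.307 and 0.274 in naive libraries, 1.78, 1.89 and 1.92 at 37 °C, and 2.34, 2.24 and 2.32 at 39 °C. No group overlapped another. The means of the groups, in this order, were 0.300 ± 0.0236, 1.87 ± 0.0748 and 2.30 ± 0.0558 (SD, n = 3), and each exact 2-sided permutation test gave p = 0.1, the smallest possible, with 0.15 after adjustment over the 9 tests of this family.

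The ratio of alpha to gamma chain also rose on activation, from 0.0685 ± 0.0114 to 0.407 ± 0.0323 at 37 °C. At 39 °C it was 0.404 ± 0.0240, which overlapped the 37 °C libraries (exact permutation p = 0.9). The ratio of beta to gamma chain was 0.226, 0.233 and 0.196 at 37 °C and 0.161, 0.187 and 0.180 at 39 °C. These did not overlap (exact permutation p = 0.1, adjusted 0.15), but the naive libraries, at 0.176, 0.257 and 0.257, covered much of both ranges, with naive library 1 apart from the others. A ratio shows that the chains changed unequally and not which of them changed.

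**Figure D4:**
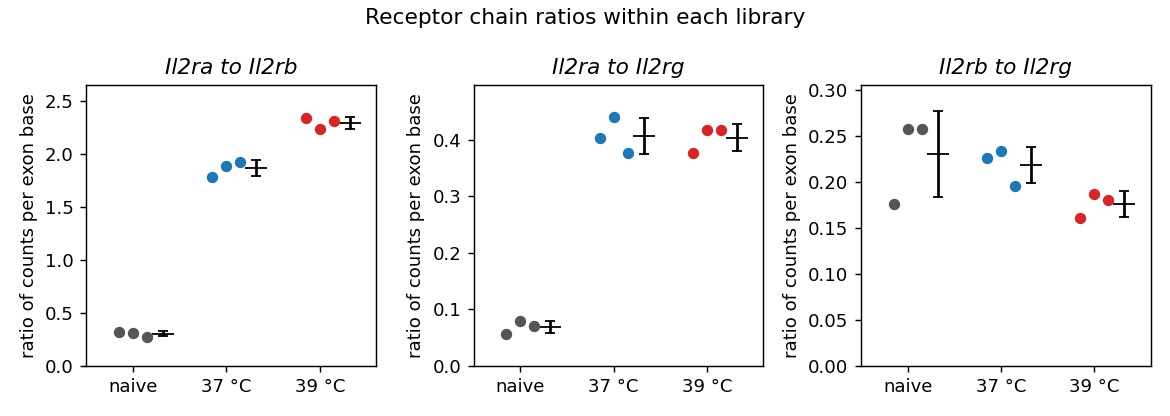
Ratio of counts per exon base between receptor chains in each library (linear axes from 0), with bars for mean and SD. Alpha to beta separates all 3 groups at means of 0.300, 1.87 and 2.30, whereas alpha to gamma is 0.407 at 37 °C and 0.404 at 39 °C.

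Annotated genes overlap 3 of the members, and the strand setting of the counting is not given in the sources used here. Adad1, on the opposite strand, shares 1408 bases of the Il2 span but no exon bases with it. It had 0, 0 and 2 counts in naive libraries, 35, 49 and 52 at 37 °C, and 70, 30 and 60 at 39 °C. These counts rose with those of Il2 (log2 fold change 6.01 ± 0.60 at 37 °C against naive, adjusted p = 3.28e-06) and amounted to 6.26% to 12.6% of the Il2 count in the activated libraries. Gm37881, an entry of unsettled status (TEC) within an Il2ra intron on the same strand, also rose, from 31 to 151 counts over the group at 37 °C (2.43 ± 0.33, adjusted p = 4.19e-05). Whether reads assigned to either gene come from its host was not tested. Gm20489, on the same strand as Il2rg, covers 30.5% of its exon bases and had at most 2 counts in any library. Counting programs often leave out reads that match several genes, so the level of Il2rg may be understated, which was not tested.

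The 3 genes of most similar pattern to each member were named by the root mean square difference of log2 CPM over the 9 libraries, each gene centred on its own mean. For Il2 these were Bcat1, an enzyme of branched-chain amino acid breakdown, the chemokine gene Ccl4 and the cell cycle inhibitor gene Cdkn1a, at differences of 0.43, 0.46 and 0.49. Ccl4 went from 0.301 ± 0.171 CPM before activation to 21.8 ± 0.524 and 21.96 ± 1.64 CPM after it, at the lower and higher temperature. For Il2ra they were the endocytic recycling gene Ehd1 at 0.065, the NF-kB regulator gene Nfkbid at 0.082 and Cd274, which encodes the ligand PD-L1, at 0.11. Ehd1 was at 22.4 ± 1.29, 169 ± 2.25 and 185 ± 7.99 CPM in the 3 groups, and Cd274 at 37.1 ± 4.45, 286 ± 1.72 and 357 ± 5.42 CPM. The closest genes to Il2rb were Mcm6, Por and Ddx23, at 0.048 to 0.060, and those closest to Il2rg were Mrpl21, Btf3l4 and Psma4, at 0.044 to 0.049. The distances are smaller for Il2rb and Il2rg, whose levels vary little, so they are not comparable between members. The measure rests on the same 9 libraries as the fold changes.

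Genes known to act on transcription of Il2 were listed, 30 in all and all tested. Upon activation at 37 °C 15 were higher, 12 lower and 3 not called, with a median log2 fold change of 0.19 against -0.0025 over all genes. In that comparison 30.9% of all genes tested were called higher and 31.8% lower. The shares at 39 °C against naive were 29.2% and 29.8%. The zinc finger factor gene Egr1 (3.61 ± 0.073), the AP-1 subunit gene Fosl2 (2.70 ± 0.11) and the NF-kB subunit gene Nfkb1 (2.43 ± 0.081) rose most, and Rel (2.38 ± 0.098) and the NFAT gene Nfatc1 (1.82 ± 0.072) rose too. Nfatc2 fell by 0.61 ± 0.10 on the log2 scale. Jun, Fos and Junb, which encode AP-1 subunits, fell, with log2 fold changes of -2.58 ± 0.073, -2.06 ± 0.074 and -1.84 ± 0.086. At 39 °C against naive 13 were higher and 11 lower, with a median of 0.15. Between the temperatures 1 was called, against 0.758% of all genes tested. That gene, Fosb, another AP-1 subunit gene, was at 30.7 ± 2.46 CPM at 37 °C and 17.3 ± 0.439 at 39 °C (log2 fold change -0.83 ± 0.091, adjusted p = 0.000771), with 6 of the 30 at an unadjusted p under 0.05, against 7.96% of all genes tested.

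Of 24 genes that carry or damp the signal of the interleukin 2 receptor, 23 were tested, Gab2 having too few counts, with 6, 16 and 20 over the 3 groups. At 37 °C against naive 6 were higher and 10 lower (30.9% and 31.8% of all genes tested), with a median of -0.11. The STAT5-induced inhibitor gene Cish rose from 16.6 ± 1.79 to 86.5 ± 1.73 CPM (2.38 ± 0.080), the phosphatase gene Ptpn6 by 1.02 ± 0.081 and the inhibitor gene Socs1 by 0.77 ± 0.12 on the log2 scale. Socs3 (-2.42 ± 0.077) and the kinase gene Pik3cd (-0.90 ± 0.11) fell. The kinases bound to the chains, Jak1 (-0.20 ± 0.077, adjusted p = 0.0355) and Jak3 (-0.42 ± 0.14, adjusted p = 0.0187), were lower, Stat5a was higher (0.54 ± 0.079) and Stat5b was not called (0.084 ± 0.099). At 39 °C against naive 7 were higher and 11 lower (29.2% and 29.8% of all genes tested), with a median of -0.10. Between the temperatures edgeR and DESeq2 called 0 of 23, where edgeR called 0.758% of all genes tested. At an unadjusted p under 0.05 there was 1 (7.96% of all genes tested), and Cish stood at 0.047 ± 0.072 and Stat5a at -0.16 ± 0.078.

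Genes known to respond to interleukin 2 or STAT5 numbered 30, of which 29 were tested and Ifng was not, with 9, 16 and 19 counts over the groups. The list was not divided by the direction of the response. Its call counts and medians therefore do not measure a response to interleukin 2. On activation at 37 °C 16 were higher and 10 lower (30.9% and 31.8% of all genes tested), with a median of 0.47. At 39 °C against naive 15 were higher and 10 lower (29.2% and 29.8% of all genes tested), with a median of 0.36. The receptor gene Tnfrsf9 (3.66 ± 0.082), the lymphotoxin gene Lta (2.93 ± 0.10) and Myc (2.62 ± 0.074), a driver of growth, rose most at 37 °C among genes averaging at least 5 CPM. Prdm1 (-1.59 ± 0.17), a repressor of Il2 that is also in the list of Il2 regulators, Klf2 (-1.21 ± 0.13), a factor of resting T cells, and the cytokine gene Osm (-0.90 ± 0.084) fell most among the same genes. Between the temperatures 1 gene was called, against 0.758% of all genes tested, and 8 of 29 were at an unadjusted p under 0.05, against 7.96%. Ccnd2, the gene of cyclin D2, was at 988 to 1018 CPM in the 37 °C libraries and at 610 to 674 CPM in the 39 °C libraries (-0.64 ± 0.094, adjusted p = 0.00671). Its call was lost without 39 °C library 1 (-0.61, adjusted p = 0.0507) or library 2 (-0.64, adjusted p = 0.0662).

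**Figure D5:**
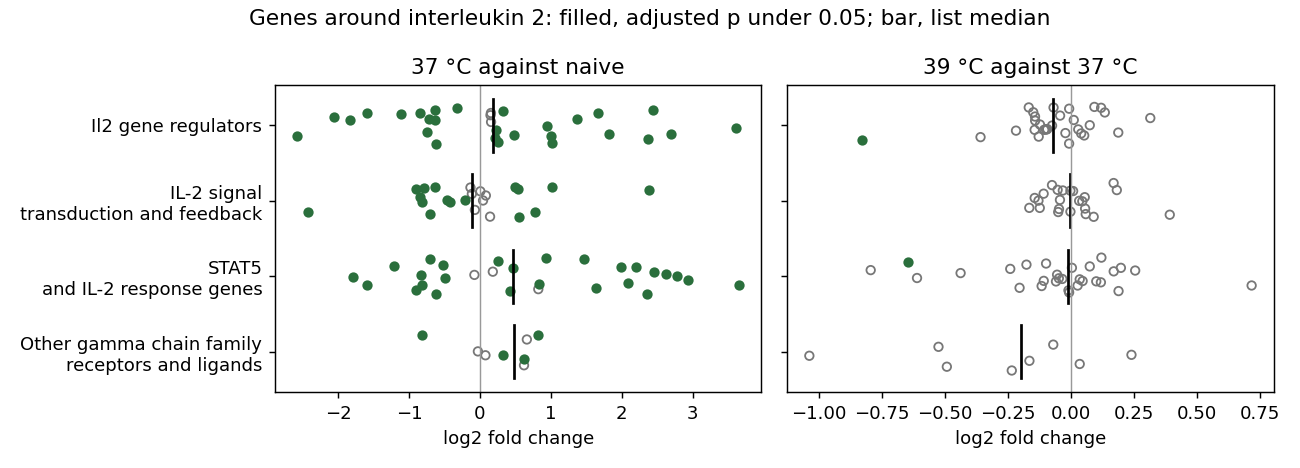
Log2 fold change of each tested gene in the 4 lists around interleukin 2, filled where the adjusted p was under 0.05, with a bar at the list median, for 37 °C against naive and 39 °C against 37 °C (x scales differ, vertical scatter carries no meaning). Calls are frequent on activation, as they are over all genes tested (62.7%), while Fosb and Ccnd2 are called between the temperatures (0.758% over all genes tested).

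The receptors and ligands that share the gamma chain, or an alpha chain of such a receptor, were listed as 13 genes, of which 8 had enough counts. At 37 °C against naive 3 were higher and 1 lower (30.9% and 31.8% of all genes tested), with a median of 0.48. The interleukin 15 receptor gene Il15ra rose from 7.69 ± 0.781 to 13.6 ± 0.985 CPM (0.82 ± 0.11), Il21r rose by 0.62 ± 0.070 and Crlf2 by 0.33 ± 0.091 on the log2 scale. The interleukin 7 receptor gene Il7r, also in the list of response genes, fell from 842 ± 49.5 to 477 ± 5.35 CPM (-0.82 ± 0.070), and Il4ra was not called (-0.028 ± 0.084). At 39 °C 3 were higher and 1 lower against naive (29.2% and 29.8% of all genes tested), with a median of 0.037. Il4, a gene of low count, was not called at 37 °C (0.66 ± 0.42) or 39 °C (0.17 ± 0.44). Between the temperatures edgeR and DESeq2 called 0 of 8, where edgeR called 0.758% of all genes tested. At an unadjusted p under 0.05 there were 3, against 7.96% of all genes tested. Il2 was the ligand of the family with a clear level in activated cells. Il4 stood at 0.992 ± 0.178 CPM and Il21 at 2.14 ± 0.327 CPM at 37 °C, Il9 had 0 counts in all libraries, and Il7, Il13 and Il15 had at most 10 counts over any group, Il21, Il7, Il9 and Il13 being named after their values were seen.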

How the data were processed

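RNA of 9 libraries of mouse splenic CD4+ T cells (3 naive, 3 activated at 37 °C, 3 at 39 °C, grouped by title) was counted per gene. The deposited values are raw counts, which the authors did not scale. Tools listed in the submitters' processing notes are DESeq2, FastQC, HTSeq and HISAT2, with the build GRCm38. Each file held a single count column, which was used. The counting program, its strand setting and its annotation are not given in the sources used here. Per the labels, RNA was extracted with TRIzol and prepared with a TruSeq kit. GENCODE M21 supplied symbols, coordinates and exon lengths for 55480 of 55573 identifiers. Promoters came from RefSeq (GRCm38.p6).

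Genes passing filterByExpr (minimum count 10, minimum total 15) entered 1 quasi-likelihood fit of all 9 libraries in edgeR 4.0.16 under R 4.3.3, with TMM scaling, with 2-sided tests adjusted by Benjamini-Hochberg over 13328 genes at a threshold of 0.05. The fit was also run on simulated counts that gave every group the same spread. That run does not cover the larger spread seen among the naive libraries. Standard errors and 95% intervals follow from the F statistic. Similar patterns used log2(CPM + 0.1), without predicted gene models. Alternatives were other scalings and filters, a 0.01 threshold, DESeq2 1.42.0, the 6 libraries of a comparison alone, a replicate block and leaving out each library. Beyond the members and fixed names, list genes were named as the 3 largest called rises and falls at 37 °C of at least 5 CPM, and every call between the temperatures; 1 gene that this rule names is not reported here. Members and lists were chosen with earlier results of these data known. The depth of 12647692 to 17605549 counts limits precision for low genes, and intervals cover the spread between these libraries.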

Additional observations from a re-analysis of the deposited data

How the results depend on the processing

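Il2 and Il2ra kept their calls against naive cells under every alternative run, with log2 fold changes of 6.13 to 7.00 and 2.83 to 3.12. The call of Il2rg at 37 °C against naive was lost with upper-quartile scaling (0.24) and at a threshold of 0.01 (0.37), and leaving out 1 library gave 0.27 to 0.53. Il2rb at 39 °C against naive gave 0.12 to 0.23 when 1 library was left out, with a call in 1 of these fits. Upper-quartile scaling shifted the median gene by -0.13 in both comparisons with naive cells. No member was called between the temperatures under any alternative, and no sign reversed.

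Between 39 °C and 37 °C the genes called over the whole table were 101, but 176 with any count, 401 with the 6 libraries alone, 45 at a threshold of 0.01 and 37 to 291 when 1 library was left out. Among Il2 regulators 1 was called, 2 with upper-quartile or library size scaling or any count, 3 with a minimum count of 50 or DESeq2, 5 with the 6 libraries alone, and 1 to 3 when 1 library was left out. Among response genes 1 was called, 4 with the 6 libraries alone, and 0 to 2 when 1 library was left out. The cause of these shifts was not tested. DESeq2 called 151 genes.

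Same-numbered libraries did not consistently deviate together, with correlations of -0.21 to 0.39 and 2 of 9 over 0.1. Those 2 were naive with 39 °C library 1 (0.39) and naive with 37 °C library 2 (0.35). With the replicate number as a block, 97 genes were called between the temperatures and no call of a member changed. Il2 in naive cells rests on 3 to 7 counts per library.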
